A study of Mus musculus with 5 samples.

Results

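The 39 protein-coding genes of the HoxA, HoxB, HoxC and HoxD clusters were followed in sorted LSK cells. They were taken by name, as every protein-coding gene whose symbol is Hoxa, Hoxb, Hoxc or Hoxd followed by a number, and they make up 39 of the 39056 genes in the count table. HoxA holds 11 of them, HoxB 10, HoxC 9 and HoxD 9.

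LSK cells (lineage-negative, Sca-1-positive, Kit-positive) are the marrow fraction that contains haematopoietic stem cells and multipotent progenitors, and here they came from C57BL/6 marrow at postnatal day 15 (P15). Transcripts were counted in 2 wild-type (WT) libraries and 3 Gabbr1 null libraries, Gabbr1 being a gene of the GABA-B receptor for the transmitter GABA. Both groups share strain, age and sorted population. The genotype comparison asks which transcripts differ in these cells when Gabbr1 is missing from the animal. The sources used here do not say how the null allele was made or whether the gene is missing from every tissue. Whether libraries stand for separate animals is not stated, and p-values therefore measure only how far these libraries spread. RNA was measured in bulk, and fewer cells of a type and less RNA per cell cannot be told apart.

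Hox genes encode homeodomain transcription factors, and they lie in clusters in an order that matches where along the body axis each is used in the embryo. Genes at the same place in different clusters are paralogues and carry the same number. In blood formation, genes of HoxA and HoxB are known to be active in stem and progenitor cells and to be switched off as cells mature. Hox proteins bind DNA together with TALE homeodomain partners of the PBX and MEIS families. The MLL complex and the DOT1L methyltransferase keep Hox chromatin active, Polycomb complexes keep it silent, and CDX factors switch Hox genes on during development.

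On the mm10 build the HoxA cluster lies on chromosome 6, HoxB at chr11:96194316-96368256, HoxC at chr15:102921103-103036852 and HoxD at chr2:74668310-74765142. The paralogues resemble each other most in the homeobox, which matters for counting because the libraries were read in stretches of 50 bases. Among the 11 Hox genes that were detected, the longest run of identical bases between transcripts of 2 genes that do not overlap in the genome was 52 bases, between Hoxa6 and Hoxb4. Reads from that run can match both genes, and their levels are uncertain to that extent. Hoxa7 shared 47 bases with each of them, and the longest run that Hoxa9 shared with another Hox gene was 31 bases, which is shorter than a read.

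The libraries differed in more than Hox genes. Total counts were between 6972753 and 8150774, and levels are given as CPM, counts scaled to library size with TMM factors. Gabbr1 itself was at 49.5 and 57.4 CPM in WT against 38.5, 34.8 and 33.0 CPM in null (edgeR adjusted p = 0.0361, and 0.0722, 0.380, 0.0802 and 0.137 when WT library 1 or 2, or null library 2 or 3, was left out). Because the deleted part is not given and counts cover the whole gene, these reads do not check the labels. Log2 fold changes (log2FC) are null over WT, from edgeR's quasi-likelihood test across 13467 genes. The gate genes Kit (log2FC -0.16, edgeR adjusted p = 0.643) and Ly6a, which encodes Sca-1 (-0.36, adjusted p = 0.644), were read in all libraries. Kit was at 995.2 and 1049 CPM in WT against 864.1, 987.4 and 883.3 CPM in null. All its null libraries thus lay below both WT libraries, as for 13.7% of all genes tested. Ly6a was at 26.83 and 30.33 CPM in WT against 29.85, 12.93 and 24.04 CPM in null. Null library 1 stood apart, with 22532 counts of Xist and none of Ddx3y, Uty, Kdm5d or Eif2s3y. Elsewhere Xist reached no more than 21 counts, and the 4 Y-linked genes were read in each of the other libraries. Sex is not labelled, but these are the counts of female cells in null library 1 and of male cells in the others. Sex was therefore not balanced between the genotypes, and it was not a term in the test.

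Transcripts of HoxA and, at lower levels, of HoxB were read in WT LSK cells, and those of HoxC and HoxD were almost absent. A gene was called detected when it reached 1 CPM in both WT libraries. This held for 11 of the 39 genes, which were 8 of 11 in HoxA, 3 of 10 in HoxB, and none of 9 in HoxC or of 9 in HoxD. The detected genes were Hoxa2, Hoxa3, Hoxa4, Hoxa5, Hoxa6, Hoxa7, Hoxa9, Hoxa10, Hoxb2, Hoxb3 and Hoxb4. Of the rest, 12 had no count in any of the 5 libraries and 16 had at least 1.

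**Figure D1:**
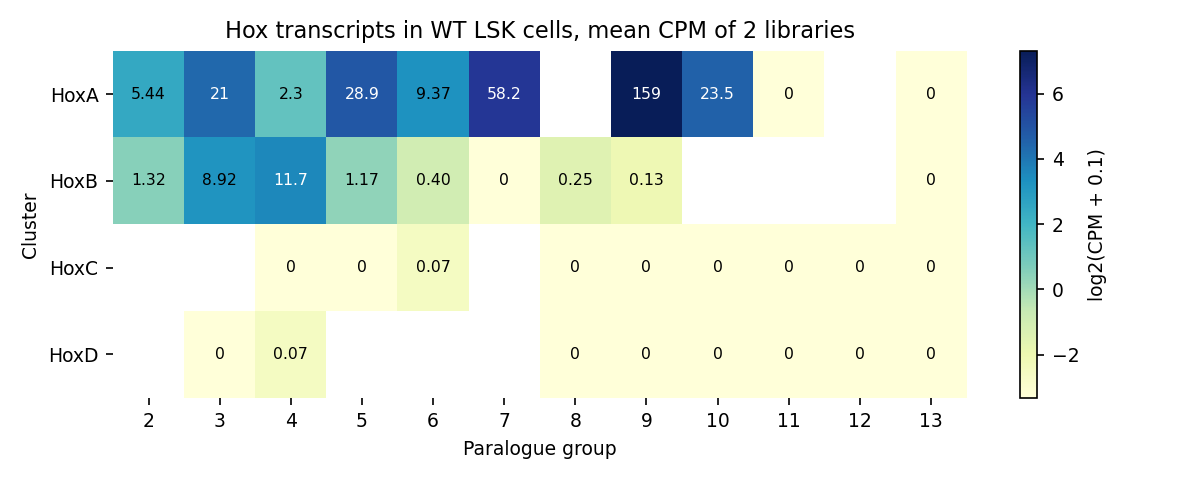
Mean CPM of Hox genes over the 2 WT libraries, with the cluster on the vertical axis and paralogue groups 2 to 13 on the horizontal axis; colour is log2(CPM + 0.1) and white marks a combination that does not exist in the mouse. The filled part of HoxA runs from Hoxa2 to Hoxa10, that of HoxB from Hoxb2 to Hoxb4, and the HoxC and HoxD rows hold at most 0.07 CPM.

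The genes below the rule had few counts. At the HoxA end beyond Hoxa10, Hoxa11 had no count in either WT library and 1, 0 and 1 in the null libraries, and Hoxa13 had none in any library. In HoxB, Hoxb5, a gene known as a marker of long-term stem cells, lay just under the detection rule with 12 and 6 counts in WT (1.48 and 0.85 CPM) and 6, 1 and 8 in null. Hoxb2, just above the rule, had 1.35 and 1.28 CPM in WT. Hoxb6 had 3 and 3 counts in WT and 1, 1 and 4 in null, and Hoxb7, Hoxb8 and Hoxb9 had at most 4 counts in any library. Hoxb1 had no count in any library and Hoxb13 a single count in all.

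HoxC and HoxD were close to the limit of the count. The 9 HoxC genes together had 0 and 1 counts in WT, compared with 1, 4 and 3 in null. The 9 HoxD genes had 0 and 1 in WT and 3, 2 and 2 in null, and 7 of them had none anywhere. A count of 0 allows up to 3 counts, or between 0.368 and 0.43 CPM per library, so it cannot exclude a level below that at this depth. No fold is given for these genes, since both groups are at this limit.

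Between genes, levels are compared as CPM per kilobase of annotated exon. Hoxa9, which supports the self-renewal of blood progenitors, was highest in WT at 28.5 ± 2.46 CPM per kilobase (SD, n = 2). Hoxa7 followed at 20.2 ± 1.86, Hoxa5 at 15.4 ± 2.05, Hoxa6 at 10.7 ± 1.57 and Hoxa10 at 7.20 ± 1.34. These 5 adjacent genes, on the side of HoxA towards Hoxa13, all stood above every detected HoxB gene. Hoxb4, known for expanding stem cells when forced on, was the highest of HoxB at 4.55 ± 0.55 CPM per kilobase. Hoxa3 at 3.499 ± 0.375 and Hoxa2 at 3.07 ± 0.32 overlapped each other between the WT libraries. Hoxb3 at 2.10 ± 0.35, Hoxa4 at 1.44 ± 0.14 and Hoxb2 at 0.38 ± 0.01 closed the order. Every other pair of neighbours in it was separated in both WT libraries, and the 11 genes stood in the same order by their null means. With the longest annotated transcript as the length in place of the union of exons, Hoxa3 moved above Hoxb4 (8.12 against 4.55), and Hoxa9 stood at 49.3 CPM per kilobase.

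Hoxa9 alone made up more than any other Hox gene in the counts. Its share of all HoxA counts was 54.0% and 49.2% in WT and 51.3%, 52.1% and 51.0% in null. HoxA held 92.8% of the Hox counts in each WT library and 92.6%, 92.6% and 91.9% in the null libraries. The split between clusters, and the part of HoxA taken by Hoxa9, thus lay close together in the genotypes while the total differed.

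Summed over all 39 genes, Hox transcripts were at 336.9 and 327.1 CPM in WT against 232.6, 243.7 and 233.9 CPM in null. The 3 null libraries were all below both WT libraries. As group means these are 332 ± 6.89 CPM (SD, n = 2) and 237 ± 6.07 CPM (SD, n = 3), a difference of -28.7%. For HoxA the sums were 312.5 and 303.5 CPM in WT, compared with 215.5, 225.8 and 214.9 CPM in null. For HoxB they were 24.4 and 23.4 CPM in WT, compared with 16.7, 17.2 and 18.4 CPM in null. The difference was -29.0% for HoxA and -27.1% for HoxB. Without Hoxa9 the detected genes still differed by -28.7%, so the lower sum did not rest on the most abundant gene. Sums have no test here, because the genes of a cluster are not replicates.

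**Figure D2:**
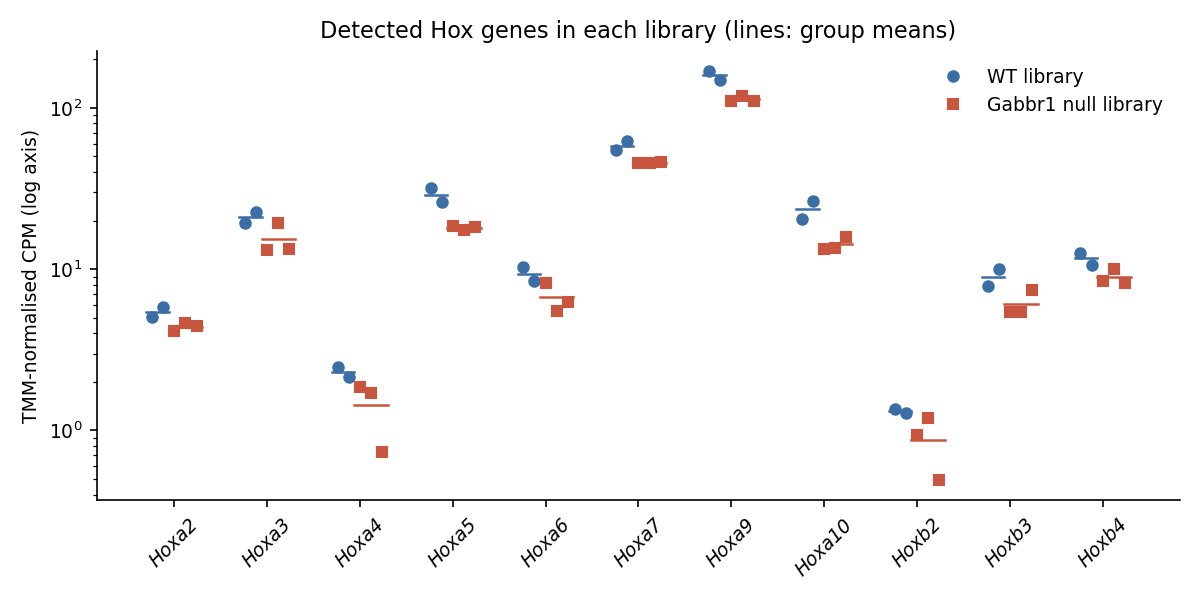
TMM-normalised CPM (log axis) of the 11 detected Hox genes, with circles for WT libraries, squares for Gabbr1 null libraries and lines for group means. For each gene the 3 null libraries lie below both WT libraries, by a narrow gap for Hoxa3, Hoxa6, Hoxb3, Hoxb4 and Hoxb2.

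The genotype test ran across 13467 genes with edgeR's quasi-likelihood test. The 11 Hox genes that entered it are the same 11 that were detected in WT. Of these, 2 fell in null (edgeR, Benjamini-Hochberg adjusted p under 0.05), Hoxa9 and Hoxa5, and none was higher. Among all genes tested, 0.334% were called lower and 2.15% higher. At an unadjusted edgeR p under 0.05, 5 of the 11 were lower (Hoxa3, Hoxa5, Hoxa7, Hoxa9 and Hoxa10), against 4.84% of all genes tested, and none was higher, against 7.99%.

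All 11 tested Hox genes had a negative log2FC, which 50.8% of all genes tested had. In all 11 the null libraries lay below both WT libraries, which was so for 13.7% of all genes tested, and the count was 11 of 11 with TMM, RLE or no scaling factors. Hoxb2 entered the test only through its WT level and so had to lie lower in null. With the filter replaced by 1 CPM in every library, 9 Hox genes were tested and all 9 had a negative log2FC, as did 51.9% of all genes. The median log2FC was -0.50 over the 11 Hox genes, with a range from -0.72 to -0.30. It was -0.49 over the 8 of HoxA, -0.54 over the 3 of HoxB and -0.0045 over all genes tested. With 1 CPM in every library, which leaves out Hoxb2, it was -0.49 over 7 genes of HoxA and -0.47 over 2 of HoxB. Without null library 1, which stood apart in its sex-linked transcripts, all 11 tested Hox genes still had negative log2FC values, with a median of -0.48, and neither Hoxa9 nor Hoxa5 passed.

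Hoxa9 (ENSMUSG00000038227.15, chr6:52223100-52231089, minus strand) was at 168.6 and 149.2 CPM in the WT libraries against 110.6, 117.7 and 109.5 CPM in the null ones. The groups did not overlap, and the null libraries lay closer together than the WT ones. The mean fell from 159 ± 13.7 CPM (SD, n = 2) to 113 ± 4.46 CPM (SD, n = 3), a log2FC of -0.50 ± 0.11 (SE; edgeR adjusted p = 0.0284). The gene was also called by DESeq2 (adjusted p = 0.00486) and limma-voom (adjusted p = 0.0372). The call was lost when WT library 1 (edgeR adjusted p = 0.0984) or 2 (0.0786), or null library 1 (0.0934) or 3 (0.113), was left out, with log2FC values between -0.58 and -0.42 over the 5 omissions.

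Hoxa5 (ENSMUSG00000038253.6, chr6:52201754-52204587, minus strand), a regulator of progenitor fate and of skeletal and lung patterning, was at 31.6 and 26.2 CPM in WT against 18.4, 17.6 and 18.1 CPM in null. All 3 null libraries sat within a narrow band below both WT libraries. Its mean fell from 28.9 ± 3.84 CPM (SD, n = 2) to 18.0 ± 0.43 CPM (SD, n = 3), a log2FC of -0.68 ± 0.16 (SE; edgeR adjusted p = 0.0454). DESeq2 called it as well (adjusted p = 0.0409), and limma-voom did not (adjusted p = 0.0547). The share of genes called lower was 0.379% with DESeq2 and 0.260% with limma-voom. The call was lost when any 1 library was left out, with edgeR adjusted p of 0.175 and 0.158 without WT library 1 or 2 and of 0.0759, 0.0984 and 0.111 without null library 1, 2 or 3.

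The sequence just before the start site is shown for the 2 genes that fell, because the detected HoxA genes lay lower together. Each run is the 250 bases upstream of the RefSeq start (GRCm38.p6, minus strand, 5′ to 3′), with CpG dinucleotides in capitals.
Hoxa9, chr6:52227371-52227620: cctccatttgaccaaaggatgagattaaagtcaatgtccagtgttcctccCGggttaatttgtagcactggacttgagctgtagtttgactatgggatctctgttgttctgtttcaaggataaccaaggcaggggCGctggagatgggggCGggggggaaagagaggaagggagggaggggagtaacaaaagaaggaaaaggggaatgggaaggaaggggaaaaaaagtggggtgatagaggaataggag
Hoxa5, chr6:52204588-52204837: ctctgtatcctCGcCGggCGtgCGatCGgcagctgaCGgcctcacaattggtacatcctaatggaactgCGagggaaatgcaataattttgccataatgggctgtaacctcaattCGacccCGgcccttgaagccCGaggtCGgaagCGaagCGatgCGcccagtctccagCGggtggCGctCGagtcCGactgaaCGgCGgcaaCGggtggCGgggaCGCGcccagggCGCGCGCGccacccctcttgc
The stretch before Hoxa5 held 28 CpG dinucleotides and that before Hoxa9 held 3, where the median of 32851 RefSeq promoters of the same length was 6. The RefSeq start of Hoxa9 lies inside the longer gene span of GENCODE, and neither stretch overlaps an annotated exon. The letters TGACAG (a MEIS motif), TGATTNAT (a PBX-HOX motif) and TTTATNG (a CDX motif) were searched on both strands. None was found in either stretch, and 15.9%, 2.8% and 9.8% of all promoters held them.

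Hoxa10, the neighbour of Hoxa9 and a regulator of progenitor proliferation, had a fold difference among the larger of the 11. It was at 20.4 and 26.6 CPM in WT against 13.3, 13.5 and 15.9 CPM in null. The groups did not overlap, but the WT libraries were further apart than those of Hoxa9 in proportion to their level. The log2FC was -0.72 ± 0.18 (SE), which missed the threshold (edgeR adjusted p = 0.0708). With edgeR's robust setting it passed (adjusted p = 0.0397).

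Hoxa7, the second of HoxA by level, was at 54.4 and 62.0 CPM in WT against 45.3, 45.7 and 46.2 CPM in null, a log2FC of -0.35 ± 0.12 (SE) that did not pass (edgeR adjusted p = 0.200). Of its annotated exon bases, 20.4% are shared with other genes, mainly the antisense gene Hoxaas3. Hoxa3 was at 19.5 and 22.6 CPM in WT against 13.2, 19.4 and 13.3 CPM in null, so null library 2 came within 0.1 CPM of the lower WT library. Its log2FC was -0.46 ± 0.21 (SE, edgeR adjusted p = 0.374), and 27.1% of its exon bases are shared with other genes. Hoxa6 was at 10.3 and 8.40 CPM in WT against 8.26, 5.54 and 6.29 CPM in null (edgeR adjusted p = 0.483). None of these 3 genes passed the test, and each value is limited by an unstated strand setting of the counting or by shared sequence.

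Hoxa2 and Hoxa4 were low. Hoxa2 was at 5.05 and 5.84 CPM in WT against 4.13, 4.62 and 4.44 CPM in null (log2FC -0.30 ± 0.30 SE, edgeR adjusted p = 0.750). Hoxa4 had 20 and 15 counts in WT and 14, 13 and 6 in null (log2FC -0.68 ± 0.51 SE, edgeR adjusted p = 0.645). With so few counts, the error of the Hoxa4 value is wide enough that a difference could not be told from none.

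Within HoxB, no gene passed. Hoxb4 was at 12.7 and 10.7 CPM in WT against 8.39, 10.0 and 8.26 CPM in null, a log2FC of -0.40 ± 0.22 (SE, edgeR adjusted p = 0.499). Hoxb3 was at 7.88 and 9.97 CPM in WT against 5.46, 5.41 and 7.40 CPM in null (-0.54 ± 0.27 SE, edgeR adjusted p = 0.426). Its exon bases are shared to 52.9% with other genes, mainly the antisense gene Hoxb3os, which bears on its value if the counting ignored strand. Hoxb2, at 11 and 9 counts in WT and 7, 9 and 4 in null, had a log2FC of -0.60 ± 0.59 (SE, edgeR adjusted p = 0.752). The HoxB fold differences lay inside the range of HoxA, and whether the clusters differ was not tested.

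Seen by library, the 11 genes were lower in each null library. The median log2 difference from the WT mean was 0.04 and -0.04 for WT, and -0.50, -0.42 and -0.56 for null libraries 1, 2 and 3. All 11 genes were below the WT mean in each null library, among them Hoxb2, which entered the test only through its WT level. The WT libraries had 5 and 6 of 11 below it. That split is no comparison, because a mean of 2 libraries puts 1 of them above it and 1 below for each gene. No single null library carried the lower level.

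No gene next to a cluster passed the test. Of the 3 nearest protein-coding genes on each side of each cluster, 24 in all, 20 were tested and none was called in either direction by edgeR or DESeq2. At an unadjusted edgeR p under 0.05, none was lower and 2 of the 20 were higher, near the 7.99% of all genes tested that were higher. Their median log2FC was 0.10, and 6 of the 20 were negative. Beside HoxA, the adaptor gene Skap2 had 110.3 ± 5.76 CPM in WT (SD, n = 2), 100.3 ± 0.63 CPM in null libraries (SD, n = 3) and a log2FC of -0.14 ± 0.10 (SE, edgeR adjusted p = 0.645). On the other side the homeobox gene Evx1 had no count in WT and was not tested, and Hibadh, a metabolic enzyme gene, had a log2FC of 0.11 ± 0.10 (SE, edgeR adjusted p = 0.751). Beside HoxB, Atp5g1 and Skap1 had log2FC values of -0.22 and 1.01 (edgeR adjusted p = 0.680 and 0.515). Beside the near-silent clusters, Calcoco1 and Smug1 (HoxC) were at 0.11 and 0.11 and Lnpk and Mtx2 (HoxD) at 0.59 and -0.32, with edgeR adjusted p of 0.802, 0.893, 0.0684 and 0.399. Of the 13 other transcripts analysed inside the clusters, 1 had enough counts to be tested, the pseudogene Gm11539 in HoxB, and it did not pass (log2FC -0.18, edgeR adjusted p = 0.820). Other antisense and microRNA genes of the clusters were not analysed here.

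**Figure D3:**
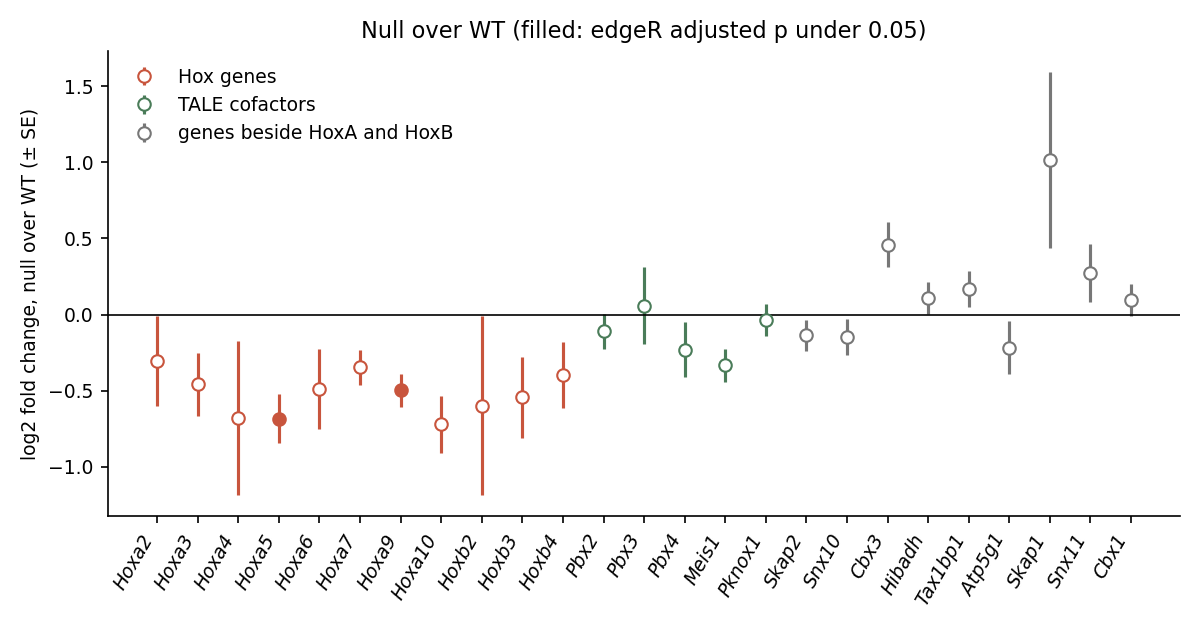
Log2 fold change of null over WT (points) with its SE (bars) for the 11 tested Hox genes, 5 of the 6 tested TALE partners and the tested genes beside HoxA and HoxB, with filled points where the edgeR adjusted p is under 0.05. The Hox points all lie below 0, between -0.72 and -0.30, while the neighbouring genes lie on both sides of it.

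Of the TALE partners, Meis1 had lower values in null but did not pass. Of 9 partner genes 6 were tested, and none was called by edgeR or DESeq2. Meis1, the chief MEIS partner of HOXA9, was at 268.9 and 274.0 CPM in WT against 202.7, 219.6 and 224.3 CPM in null, so that the groups did not overlap. Its log2FC was -0.33 ± 0.11 (SE), with an edgeR adjusted p of 0.166 and an unadjusted p of 0.00871. Pbx2, Pbx3, Pbx4 and Pknox1 had log2FC values of -0.11, 0.06, -0.23 and -0.04, with edgeR adjusted p of at least 0.667. Meis2, Meis3 and Pknox2 had too few counts to test.

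Among the regulators of Hox chromatin, 1 gene was called, lower in null, as were 0.334% of all genes tested. In the MLL complex none of 9 passed, and the 3 most abundant, Hcfc1, Kmt2a (which encodes MLL itself) and Wdr5, had log2FC values of 0.04, 0.10 and 0.01. None of the 9 had an unadjusted edgeR p under 0.05, and DESeq2 called none. Of 10 genes for DOT1L and its elongation partners none passed, with Aff3 at 0.15, Dot1l at -0.10 and Aff1 at 0.42 (edgeR adjusted p = 0.685, 0.843 and 0.0786). Aff1 was the only member of that list with an unadjusted p under 0.05, and DESeq2 called it higher. Of 27 Polycomb genes and their opponents, Kdm6b, a demethylase that removes the Polycomb mark, fell from 139.7 ± 19.8 CPM (SD, n = 2) to 97.3 ± 8.26 CPM (SD, n = 3), a log2FC of -0.52 ± 0.12 (SE, edgeR adjusted p = 0.0453). That call was lost with limma-voom (adjusted p = 0.0606) and, with edgeR, when WT library 1 (0.0508) or 2 (0.415), or null library 2 (0.124) or 3 (0.161), was left out. At an unadjusted edgeR p under 0.05, 5 of the 27 were lower (Kdm6b, Cbx7, Phf1, Cbx6 and Phc1) and 3 higher (Ezh2, Suz12 and Kdm6a). Among all genes tested, 4.84% were lower and 7.99% higher at that level. Kdm6a, on the X chromosome, was at 62.15 and 52.12 CPM in WT against 109.9, 66.38 and 62.88 CPM in null. Its highest value was in null library 1, which stood apart in its sex-linked transcripts. The median log2FC was -0.01 for the MLL complex, -0.02 for the DOT1L list and 0.01 for the Polycomb list. Cdx1, Cdx2 and Cdx4 had no count in any library.

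Genes known to act downstream of Hoxa9 and Meis1 in blood progenitors had values in both directions. Of 10 tested, 1 was called. Id2, which encodes an inhibitor of helix-loop-helix factors, was at 10.3 and 7.55 CPM in WT against 38.2, 23.0 and 15.2 CPM in null. It rose 2.82-fold (SE 0.34 on the log2 scale, edgeR adjusted p = 0.0378), a call lost with limma-voom (adjusted p = 0.133), with edgeR's robust setting (0.272) and without WT library 1 (0.155) or WT library 2 (0.519). Without null library 1, the highest, the log2FC of Id2 was 1.08 (edgeR adjusted p = 0.0289). At an unadjusted edgeR p under 0.05, 3 of the 10 were lower (Flt3, Lmo2 and Mecom) and 3 higher (Cdk6, Bcl2 and Id2), where 4.84% of all genes tested were lower and 7.99% higher at that level. The median log2FC was 0.05. These lists were chosen with earlier results of these data known.

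Markers of other cells differed between the libraries. Summed levels of B lineage, endothelial, stromal and cartilage markers were higher in every null library than in either WT library. The mature neutrophil sum was above both WT libraries in null libraries 1 and 2 only. For the counts of called markers below, the background is the 2.15% of all genes tested that were called higher. The 10 B lineage markers, among them Rag1 and Blnk, were called higher in 10 of 10 (2 of 10 without WT library 2, and 3 of 10 with edgeR's robust setting) and summed to between 100.4 and 241.1 CPM in WT and between 720.5 and 1287 CPM in null. Of 6 endothelial markers 3 were called higher, with sums of 183 to 187 CPM in WT and 263.1 to 270.5 CPM in null, of which the most abundant, Pecam1 and Emcn, did not pass. Of 8 stromal markers 4 were called higher (2 when either WT library was left out), with sums of 54.5 to 80.9 CPM in WT and 102 to 199 CPM in null, mostly Pdgfrb in WT, and Lepr and Pdgfra at 0 there. The 7 cartilage markers summed to 0.86 and 1.14 CPM in WT and to between 22.0 and 158 CPM in null. Of these 7, only 4 were tested, and all 4 were called higher (0 with limma-voom or with the robust setting). These 4 entered the test only through their null levels and so had to lie higher. With 1 CPM in every library, no cartilage marker was tested. At that filter 9 of 9 B lineage, 0 of 3 endothelial and 1 of 2 stromal markers were called higher, against 164 of 12257 genes tested. Col2a1 and Acan were at 0 in WT, and Sox9 had no count in any library. The 7 mature neutrophil markers, led by S100a9 and Ngp, summed to 101 to 139 CPM in WT and to 2080, 554 and 129 CPM in null libraries 1, 2 and 3, with none called (3 without null library 1 and 5 without null library 3). Null library 3 had a neutrophil marker sum within the WT range and the lowest cartilage sum of the null libraries. Its B lineage, endothelial and stromal sums of 1176, 263.1 and 102 CPM lay above both WT libraries, as did its cartilage sum. The Hox sum of null library 3 was 233.9 CPM, beside 232.6 and 243.7 CPM in the other null libraries. The part of B lineage or other cells in the lower Hox levels was not tested.

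**Figure D4:**
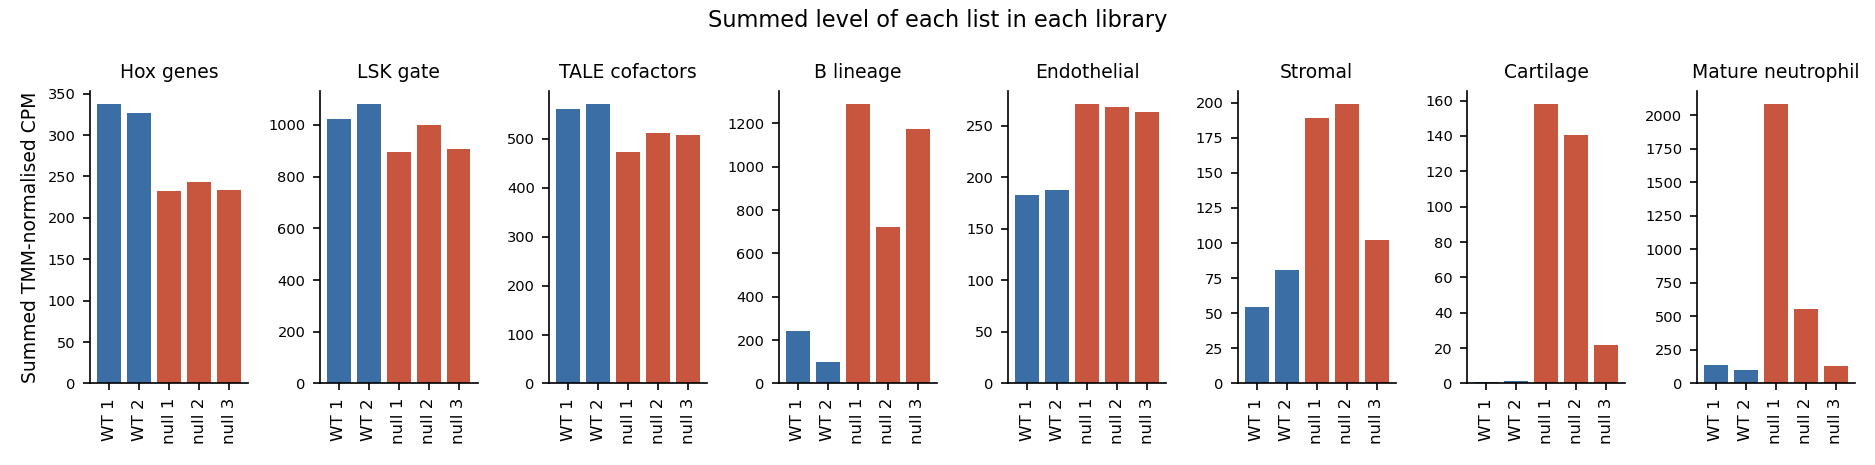
Summed TMM-normalised CPM of 8 gene lists in each of the 5 libraries (bars, each panel with its own axis from 0; blue WT, red Gabbr1 null). The Hox bars of the 3 null libraries are nearly level at 232.6 to 243.7 CPM, as are the endothelial bars at 263.1 to 270.5 CPM, whereas the B lineage, stromal, cartilage and neutrophil bars vary between the null libraries.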

How the data were processed

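RNA of about 12000 sorted cells per library was depleted of ribosomal RNA with mouse probes and read as paired 50-base reads, per the labels' protocols, although another label field reads polyA RNA. The extraction protocol gives 4 animals per genotype and the series design 2 and 3, which is the number of libraries. STAR, featureCounts and mm10 were used, per the submitters' processing notes; their versions, the strand setting and the treatment of multiply matching reads were not given in the sources used here. Values are raw counts as the authors deposited them, whole numbers without scaling. 99.5% of gene identifiers matched GENCODE M21 when versions were ignored.

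Counts were tested with edgeR 4.0.16 in R 4.3.3 (TMM, filterByExpr, quasi-likelihood test, genotype as the only term, 3 residual degrees of freedom, Benjamini-Hochberg adjustment over 13467 genes, threshold 0.05). The filter asked for about 1.28 CPM in at least 2 libraries. SE was derived from the F statistic. Alternatives were RLE and upper quartile factors, no filter, 1 CPM in every library, DESeq2 1.42.0, voom of limma 3.58.1, a robust edgeR fit, omission of each library in turn, and 0.1 as threshold. The code was tested on simulated counts. The Hox genes and all gene lists were chosen with earlier results of these data known. Genes named are the Hox genes, the called members of each list or else its 3 most abundant, and tested TALE partners. Also named are Gabbr1, Kit, Ly6a, the 2 most abundant markers of each other cell type, and the nearest tested gene on each side of a cluster. Meis2, Meis3, Pknox2, Evx1, Gm11539, Flt3, Lmo2, Mecom, Cdk6 and Bcl2 were named after their values were seen. So were Cbx7, Phf1, Cbx6, Phc1, Ezh2, Suz12, Kdm6a, Cdh5, Kdr, Stab2, the sex-linked genes and markers at 0. Intervals and limits cover counting error only. Protein sequences were not used here, and some genes and sequences are not reported here.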

Additional observations from a re-analysis of the deposited data

How the results depend on the processing

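The fold changes of the 11 Hox genes kept a negative sign under every scaling, filter, tool and omitted library in which each was tested, and the counts of calls did not hold as well. Hox genes called lower numbered 2, and 1 with 1 CPM in every library, 1 with limma-voom and between 0 and 1 with a library left out. Over those omissions the median Hox log2FC lay between -0.55 and -0.40, the latter without null library 3, where fewer Hox genes were tested. With no filter, 27 Hox genes were tested, 3 were called lower, and 11 had positive values. All genes called lower numbered 45, with 155 under no filter, 81 at an adjusted p under 0.1 and between 0 and 51 with a library left out. All genes called higher numbered 289, with 164 at 1 CPM in every library, 602 under no filter and between 32 and 316 with a library left out. With 1 WT library left, its spread is taken to equal that of the null group.

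The DOT1L list had 0 genes called higher and 1 with DESeq2, no filter, the robust fit or an adjusted p under 0.1. The Polycomb list had 1 called lower, with 0 at 1 CPM in every library and with limma-voom, 2 with no filter or an adjusted p under 0.1, and between 0 and 1 with a library left out; its genes called higher went from 0 to 2 with no filter. The list downstream of Hoxa9 and Meis1 had 0 called lower and 1 with DESeq2, no filter, the robust fit or an adjusted p under 0.1. Its genes called higher numbered 1, with 2 under DESeq2, 0 under limma-voom, 3 with no filter or an adjusted p under 0.1, and between 0 and 1 with a library left out. Genes beside the clusters had 0 called higher, with 2 under no filter, 1 with the robust fit or an adjusted p under 0.1, and between 0 and 1 with a library left out. The cause of these shifts was not tested. No paired analysis was possible because the labels carry no replicate numbers that tie a WT library to a null one.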
